A study of Mus musculus with 9 samples.

Results

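Tac1 and 9 further genes formed a set whose signal lay above the whole body in the condyle of the temporomandibular joint and under the whole body in the fossa. The members were Tac1, Kcp, Emilin2, Zyx, Ldlrad3, Erlin2, Txlna, Utp4, Ydjc and Srrd, 10 of the 18193 genes named on the array. They were chosen from these same 9 arrays for that pattern, so their differences between groups are described here without a test. The 10 genes were read by 15 probe sets, of 45101 on the array, and each gene is represented by the probe set that was brightest on average.

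The study measured RNA from mouse embryos at embryonic day 16.5 (E16.5) on 3 arrays of the condyle, 3 arrays of the fossa and 3 arrays of the whole body. The condyle is the rounded head of the lower jaw and the fossa is the socket of the skull base that receives it. Tissue was cut from fresh frozen embryos by laser capture microdissection, which the labels give for all 9 samples, the whole body included. No genotype, strain or sex is labelled for any group. The series' design calls the 3 arrays of a group biological replicates, without naming the embryo behind each. In such bulk samples fewer cells of a type and less RNA per cell cannot be told apart.

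Tac1 encodes the precursor that is cut into the tachykinin neuropeptides substance P and neurokinin A, which act on the receptors encoded by Tacr1 and Tacr2. In adult animals substance P is best known from sensory nerve fibres, including those that supply joints. The other members have separate known roles. Kcp is a secreted protein with chordin-like repeats that modulates bone morphogenetic protein (BMP) signalling, and Emilin2 is a glycoprotein of the extracellular matrix. Zyx is zyxin, a LIM domain protein of focal adhesions and actin filaments, and Ldlrad3 is a membrane protein with LDL receptor class A repeats. Erlin2 sits in the membrane of the endoplasmic reticulum and takes part in the degradation of inositol trisphosphate receptors, and Txlna is alpha-taxilin, a partner of syntaxins. Utp4 is a subunit of the small subunit processome, which makes the precursor of the small ribosomal subunit in the nucleolus. Ydjc is a homologue of a bacterial carbohydrate deacetylase, and Srrd is named for its SRR1-like domain.

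The start regions of the members were read from RefSeq (build GRCm38.p6), since genes that share a pattern are often searched for shared letters. Entries of 300 bases, with 250 before the start and 50 after it, were held for 7 of the 10 genes, in 9 windows. Erlin2, Ydjc and Srrd had no entry in the table used. The Tac1 window, chr6:7554811-7555110 on the plus strand, is shown with its CACGTG match (an E-box) and its GGGCGG match (a GC box) in capitals:
Tac1: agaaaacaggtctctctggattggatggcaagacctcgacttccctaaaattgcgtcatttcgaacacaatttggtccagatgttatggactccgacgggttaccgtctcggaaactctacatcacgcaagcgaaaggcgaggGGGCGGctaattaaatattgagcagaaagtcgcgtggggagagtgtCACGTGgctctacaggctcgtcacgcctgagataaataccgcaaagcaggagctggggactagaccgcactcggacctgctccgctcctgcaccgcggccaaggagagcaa

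CACGTG lay in windows of 3 members, Tac1, Txlna and Utp4, and in 7.15% of all 32851 windows in the table. It began 61 bases before the start in Tac1, 29 bases after the start in a window of Txlna and 16 bases after it in Utp4. The 30 bases around each match are given for comparison, with CACGTG in capitals (Tac1 at chr6:7554988-7555017 on the plus strand, Txlna at chr4:129640760-129640789 on the minus strand, Utp4 at chr8:106893643-106893672 on the plus strand):
Tac1: tggggagagtgtCACGTGgctctacaggct
Txlna: gcgcgggggtccCACGTGggacctggtggg
Utp4: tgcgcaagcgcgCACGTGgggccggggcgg

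Both strands were searched for 5 motifs. GGGCGG was found in 8 of the 9 windows, covering all 7 genes, and in 35.7% of all windows. TGANTCA (an AP-1 site) was found in the Zyx window alone among the members, and in 7.81% of all windows. TGACGTCA (the full cAMP response element) and TATAAA were found in 0 of the 9, and in 1.79% and 13.6% of all windows. These matches describe letters only.

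The deposited intensities are given on the log2 scale, and each value below is a level of 1 probe set, so that levels of different genes are not set against each other. Tac1 stood at 8.94, 9.01 and 8.68 on the condyle arrays, at 4.47, 5.65 and 5.49 on the fossa arrays, and at 7.16, 7.28 and 7.10 on the whole body arrays. The 3 groups did not overlap, and fossa array 1 was the lowest of the 9. The condyle mean was 8.88 ± 0.17, the fossa mean 5.20 ± 0.64 and the whole body mean 7.18 ± 0.09 (SD, n = 3 each). Tac1 was thus 3.25-fold above the whole body in condyle and 3.94-fold under it in fossa, and 12.8-fold higher in condyle than in fossa. On the log2 scale the differences were 1.70, -1.98 and 3.67, each with a standard error (SE) of 0.29. Without fossa array 1 the difference of fossa from whole body was -1.61.

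**Figure D1:**
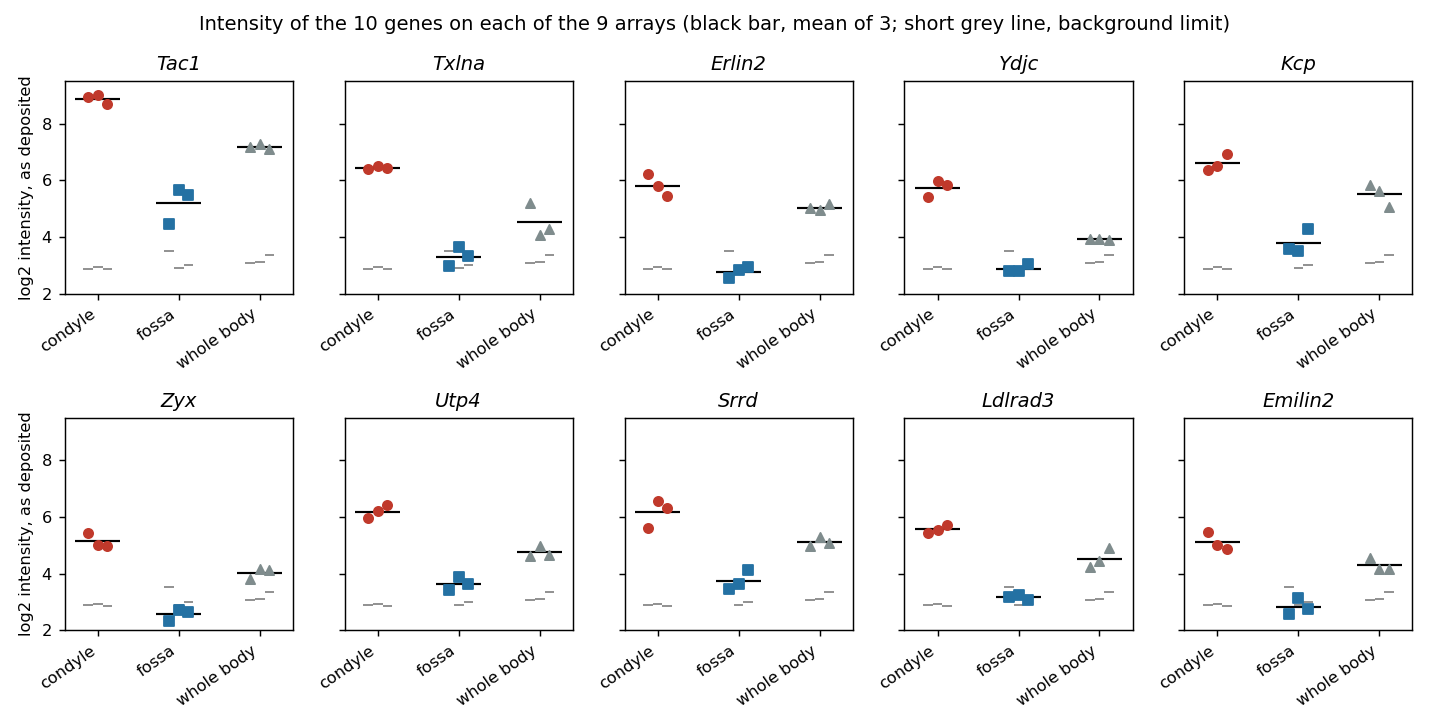
Log2 intensity (vertical axis) of the 10 genes on each array, by group (horizontal axis); black bars are means of 3 arrays and short grey lines the background limit of each array. In every panel the 3 condyle points lie above, and the 3 fossa points below, all 3 whole body points, and Tac1 is the panel with fossa points clear of the background limit by the widest margin.

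For all 10 genes the 3 condyle arrays lay above all 3 whole body arrays and the 3 fossa arrays below them. Counted by contrast, 19.8% of all genes had condyle arrays wholly above whole body, 31.1% had fossa arrays wholly under it, and 33.9% had condyle arrays wholly above fossa. Both of the first conditions held for 1.94% of all genes (353 of 18193), and the opposite arrangement for 2.44%. By the order of the group means alone the shares were 22.6% and, for the opposite order, 11.2%. In the fit across all genes, 69 genes (0.379%) passed adjusted p under 0.05 both above whole body in condyle and under it in fossa, and the 10 members were among them, while 0 genes passed the opposite way (5 genes, 0.0275%, after quantile normalization). The rule sets no size of difference, and it used these contrasts, so nothing is read from the members' count. The contrasts against whole body share the whole body arrays. The share of all genes that passed was 9.34% for higher in condyle than in whole body, 15.6% for lower in fossa than in whole body, and 16.8% for higher in condyle than in fossa.

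**Figure D2:**
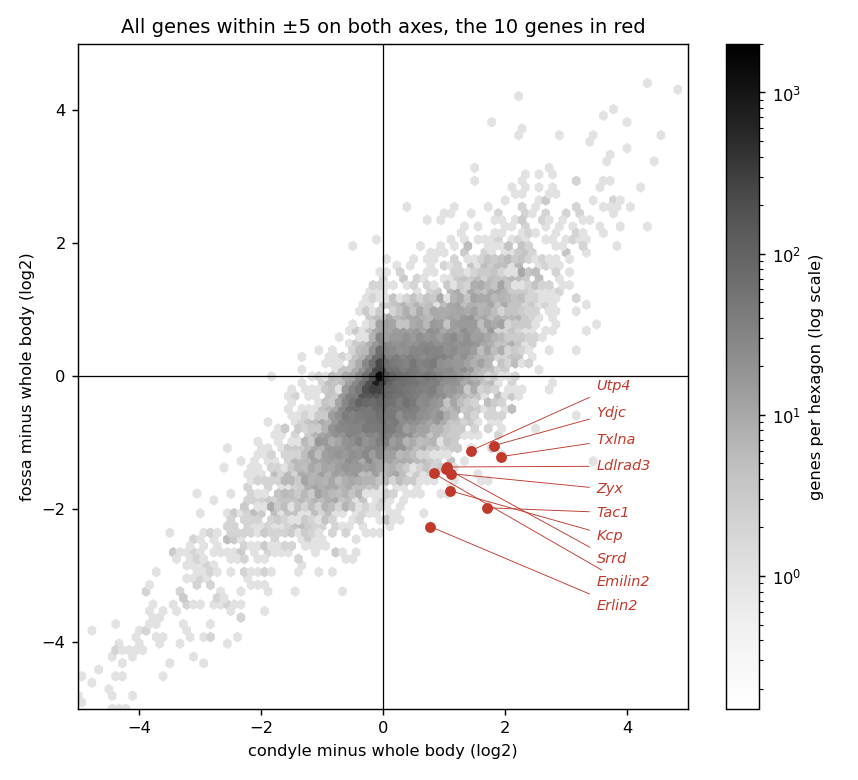
Difference of condyle from whole body (horizontal axis, log2) against difference of fossa from whole body (vertical axis, log2) for the genes within 5 log2 units on both axes; grey hexagons count genes on a log scale and red points are the 10 members. The members lie at the lower right, from 0.78 to 1.93 on the horizontal axis and from -2.26 to -1.04 on the vertical axis, and both axes share the whole body arrays.

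Whether the fossa signal was still measurable differed among the members. The background limit of an array was taken as the brightest of 27 probe sets that read bacterial control transcripts, and ran from 2.87 to 3.52 (log2). All 10 genes were above it on all 3 condyle arrays and all 3 whole body arrays. In fossa, Tac1 and Kcp were above it on all 3 arrays, Txlna, Utp4, Srrd and Ldlrad3 on 2, Ydjc and Emilin2 on 1, and Erlin2 and Zyx on 0. Txlna, Utp4, Srrd and Ldlrad3 lay under it on fossa array 1 only, which had the highest limit (3.52, against 2.89 and 3.00 on fossa arrays 2 and 3). For the 8 genes other than Tac1 and Kcp the fold against fossa is therefore given as "at least", with each fossa value raised to the array's limit where it lay under it.

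Among the genes of secreted products, Kcp stood at 6.35, 6.51 and 6.93 in condyle, at 3.58, 3.49 and 4.27 in fossa, and at 5.83, 5.61 and 5.05 in whole body. It was 2.14-fold above whole body in condyle, and 3.30-fold under it in fossa. The lowest condyle array of Kcp lay close above its highest whole body array, while the fossa arrays lay well apart. Emilin2, the matrix glycoprotein, stood at 5.47, 5.0 and 4.88 in condyle, at 2.59, 3.14 and 2.76 in fossa, and at 4.54, 4.15 and 4.17 in whole body. It was 1.77-fold above whole body in condyle and at least 2.10-fold under it in fossa. As with Kcp, the condyle and whole body arrays lay close to each other, and the fossa arrays were at or near the limit.

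Zyx, the focal adhesion gene, stood at 5.43, 5.02 and 4.99 in condyle, at 2.31, 2.73 and 2.66 in fossa, and at 3.81, 4.16 and 4.12 in whole body. All 3 fossa arrays were at background, so that Zyx was at least 4.03-fold higher in condyle than in fossa and at least 1.86-fold under whole body in fossa. It was 2.17-fold above whole body in condyle. Ldlrad3, the membrane protein gene, stood at 5.45, 5.56 and 5.71 in condyle, at 3.19, 3.25 and 3.05 in fossa, and at 4.25, 4.43 and 4.90 in whole body. Its arrays were tight in both joint tissues and spread most in whole body. Ldlrad3 was 2.06-fold above whole body in condyle and at least 2.38-fold under it in fossa.

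Erlin2 stood at 6.21, 5.78 and 5.45 in condyle, at 2.56, 2.84 and 2.93 in fossa, and at 5.03, 4.94 and 5.15 in whole body. Its condyle arrays exceeded whole body by the least of the 10 members, 1.71-fold, and in fossa it was at least 3.73-fold under whole body, with all 3 fossa arrays at background. Txlna stood at 6.41, 6.49 and 6.43 in condyle, at 2.96, 3.65 and 3.32 in fossa, and at 5.20, 4.06 and 4.28 in whole body. Whole body array 1 was the outlying array, and without it the difference of condyle from whole body was 2.27 and that of fossa -0.86, against 1.93 and -1.21 with it. With all arrays Txlna was 3.80-fold above whole body in condyle and at least 2.03-fold under it in fossa.

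Utp4 stood at 5.97, 6.20 and 6.41 in condyle, at 3.41, 3.87 and 3.63 in fossa, and at 4.63, 4.96 and 4.67 in whole body. It was 2.70-fold above whole body in condyle and at least 2.12-fold under it in fossa, and the 3 groups did not overlap. Ydjc stood at 5.40, 5.97 and 5.85 in condyle, at 2.81, 2.80 and 3.04 in fossa, and at 3.95, 3.92 and 3.91 in whole body, the tightest whole body group of the 10. It was 3.51-fold above whole body in condyle and at least 1.71-fold under it in fossa. Srrd stood at 5.61, 6.57 and 6.30 in condyle, at 3.48, 3.63 and 4.11 in fossa, and at 4.97, 5.31 and 5.10 in whole body. Condyle array 1 was the lowest condyle array of Srrd and lay closest to whole body. Srrd was 2.05-fold above whole body in condyle and at least 2.59-fold under it in fossa.

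The members differed in where the whole body fell between the joint tissues. Measured from the fossa mean (0%) to the condyle mean (100%) on the log2 scale, the whole body lay at 36.5% in Ydjc, 38.5% in Txlna and 43.8% in Utp4. It lay at 53.8% in Tac1, and between 56.6% and 57.2% in Ldlrad3, Zyx and Srrd. It lay at 61.1% in Kcp, 63.8% in Emilin2 and 74.5% in Erlin2. For the 8 genes with fossa arrays at background the fossa mean is not fully measured, so that no order of the condyle step and the fossa step is read from their shares. Over the 10 genes the difference of condyle from fossa ran from 2.29 to 3.67 with a median of 2.70, where the median over all genes was 0.21.

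The upper part of the array distributions differed between the groups in the same order as the members, and the medians did not. The 75th percentile of all probe sets on the log2 scale was 4.81 to 4.90 in condyle, 4.03 to 4.29 in fossa, with 4.35 to 4.54 in whole body. The median was 2.79 to 2.80 in condyle, 2.75 to 2.80 in fossa, with 2.87 to 2.97 in whole body, and centring on it put Tac1 1.81 above whole body in condyle and -1.83 from it in fossa. The share of probe sets above background was 45.4% to 46.9% in condyle, 30.3% to 43.8% in fossa, with 37.4% to 45.9% in whole body. After quantile normalization, which gives all arrays 1 distribution, all 10 genes still had their condyle mean above and their fossa mean below the whole body mean. The differences then ran from 0.26 (Erlin2) to 1.45 for condyle and from -2.29 (Erlin2) to -0.95 for fossa. All 10 fossa groups still lay wholly under whole body, but only 6 condyle groups lay wholly above it. The exceptions were Erlin2, Kcp, Srrd and Emilin2. Over all genes the groups without overlap were counted on this scaling for both sides together only (1.96%). In the fit on the quantile normalized values 5 of the 10 members passed above whole body in condyle and 9 passed under it in fossa, against 10 and 10 as deposited. Of all 18193 genes, 824 passed higher in condyle and 1641 lower in fossa than in whole body in that fit. The members were chosen on these contrasts, so nothing is read from their counts. The members that no longer passed in condyle were Erlin2, Kcp, Srrd, Emilin2 and Txlna, and in fossa Txlna. The median difference over all genes between condyle and fossa went to -0.01 with this scaling, where it was 0.21 as deposited. After quantile normalization 12 genes of all passed in both contrasts against whole body (0.066%), and the arrangement without overlap held for 1.96% of genes, with the opposite arrangement in 0.715%. The order of the means alone then held for 14% of genes. Signs of RNA quality differed between the groups too. The log2 signal of the 18S ribosomal RNA control was 5.86 to 9.63 in condyle, 6.91 to 9.52 in fossa, with 13.2 to 13.5 in whole body. The log2 difference between the 3′ and 5′ control probe sets of Gapdh was 5.33 to 6.86 in condyle, 3.69 to 5.31 in fossa, with 5.34 to 6.52 in whole body. Fossa array 1 had the lowest share above background and the lowest such difference, and the part of these measures in the members' differences was not tested.

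**Figure D3:**
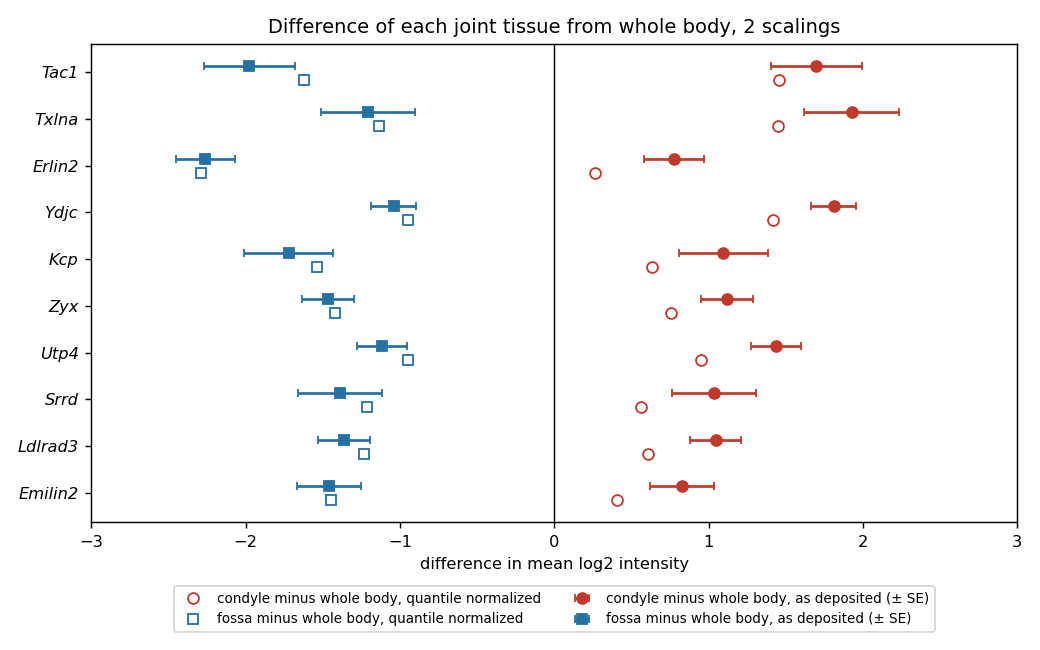
Difference in mean log2 intensity (horizontal axis) of condyle (red circles) and fossa (blue squares) from whole body for each member (vertical axis); filled symbols with SE bars are the deposited values and open symbols the values after quantile normalization. Every condyle difference shrank toward 0 after quantile normalization, Erlin2 to 0.26 and Tac1 to 1.45, while no symbol crossed 0.

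Other probe sets of the same genes did not repeat the pattern. Of the 10 genes 4 had more than 1 probe set, with 5 further probe sets in all, and in 0 of the 5 did the condyle mean lie above and the fossa mean below whole body. The second Tac1 probe set was at background on all 9 arrays, between 2.41 and 2.55. The second Zyx probe set had means of 3.79 in condyle, 3.70 in fossa, with 3.81 in whole body, a nearly flat line. The second Srrd probe set had means of 3.96 in condyle, 4.01 in fossa, with 4.12 in whole body, so that condyle lay under whole body here. The 2 further Txlna probe sets kept the condyle side of the pattern only. On one Txlna stood at 5.22, 5.53 and 5.25 in condyle, at 4.04, 4.20 and 4.02 in fossa and at 3.34, 3.47 and 4.30 in whole body, and on the other the means were 4.25 in condyle, 3.79 in fossa, with 3.52 in whole body. On both, condyle lay above whole body by 1.63 and 0.73, and fossa overlapped whole body with a mean above it by 0.38 and 0.27. Which transcripts each probe set reads is not given in the files used here.

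**Figure D4:**
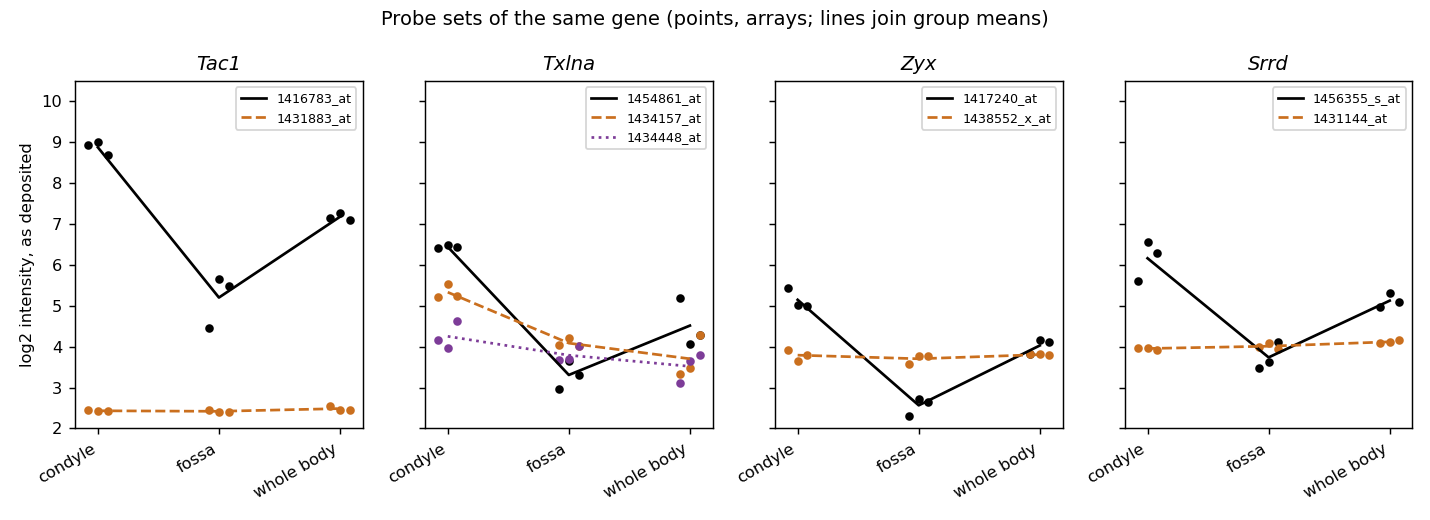
Log2 intensity (vertical axis) by group (horizontal axis) for every probe set of the 4 members that have more than 1; points are arrays and lines join group means. The solid black line, the probe set that represents the gene, dips in fossa in all 4 panels, while the second lines of Tac1, Zyx and Srrd are flat and both further Txlna lines slope down from condyle to whole body.

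Tac1 stood alone among the measured tachykinin precursor genes in being above background. Of 10 measured peptide, receptor and processing genes, 0 passed in any of the 3 comparisons in limma's test as deposited, and at an unadjusted p under 0.05 the counts were 1 in condyle against whole body, 0 in fossa against whole body and 1 in condyle against fossa. After quantile normalization Tacr1 was called higher in fossa than in whole body (adjusted p = 0.028), at a level under the background limit. Tac2, the neurokinin B precursor gene, Tac4, the hemokinin precursor gene, and Tacr1, the substance P receptor gene, were at or under the limit on all 9 arrays. Tacr2 was above it on 1 whole body array only. Tacr3, the neurokinin B receptor gene, was above background on all 9 arrays, with means of 3.63 in condyle, 4.34 in fossa, with 4.52 in whole body, and did not pass (condyle minus whole body -0.89 ± 0.37 SE, adjusted p = 0.171). Mme, the gene of neprilysin, which breaks down substance P, stood at 7.12 in condyle, 6.69 in fossa, with 7.03 in whole body, and did not pass (condyle minus fossa 0.43 ± 0.64, adjusted p = 0.689). Its arrays ran from 6.26 to 7.97 in condyle and from 6.03 to 8.33 in whole body, so these values do not show an equal level.

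Sensory neurons are a known source of Tac1. Of 18 measured sensory neuron markers, 0 passed in any comparison in limma's test, and at most 2 had an unadjusted p under 0.05 in 1 comparison. Their mean log2 level was 5.03, 3.62 and 4.20 on condyle arrays 1 to 3, and 3.41, 5.76 and 3.98 on fossa arrays 1 to 3. It was 4.17, 4.13 and 4.24 on the whole body arrays. The condyle and fossa arrays overlapped each other and lay on both sides of the whole body arrays. The part of nerve content in the Tac1 differences was not tested. The summed intensity of the 18 markers was 335 to 1784 in condyle, 215 to 2433 in fossa, with 853 to 1109 in whole body. Trpv1 and Scn10a, markers of pain-sensing neurons, were at background on all 9 arrays, and Calcb, a peptide gene of such neurons, was above it on 1 condyle and 1 fossa array. Others of the same list, Isl1, Pou4f1, Nefl, Nefm, Ngfr and Ntrk3, were above background on all 9 arrays, and the rest on some arrays. The 12 general neuron markers (means 4.21 to 6.92 in condyle, 4.32 to 6.19 in fossa, 5.28 to 5.37 in whole body) and the 6 measured Schwann cell markers (5.08 to 5.62, 4.60 to 6.13 and 5.10 to 5.70) had 0 calls as well, with at most 1 and 2 genes at an unadjusted p under 0.05 in 1 comparison.

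**Figure D5:**
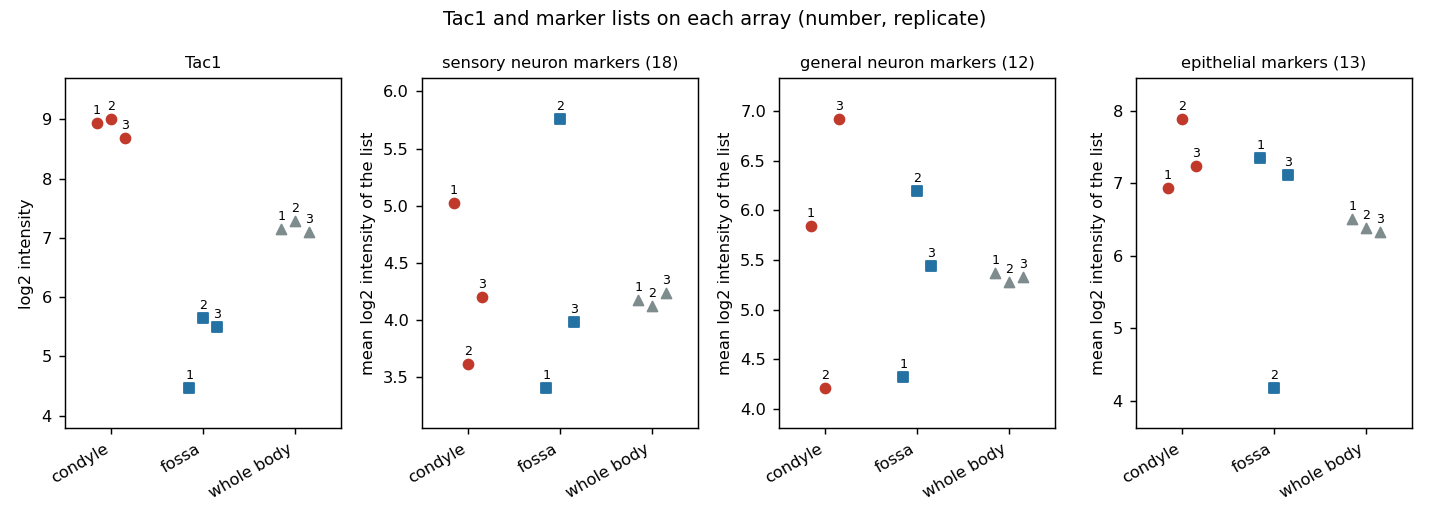
Log2 intensity of Tac1 and mean log2 intensity of 3 marker lists (vertical axes) on each array by group (horizontal axes), with replicate numbers beside the points. Tac1 separates the 3 groups, while the sensory neuron, general neuron and epithelial means overlap between condyle and fossa, with fossa array 2 highest for sensory neurons (5.76) and lowest for epithelium (4.18).

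Markers of other tissues gave the following levels. Of 12 cartilage markers 9 passed above whole body in condyle and 9 in fossa, with 0 lower, and 2 were higher in condyle than in fossa (Sox9 and Sox6). Of 7 measured bone markers 1 was higher in condyle and 3 in fossa than in whole body. The defining matrix genes Col2a1 and Acan were above background on all 6 joint arrays. The 13 epithelial markers had a mean of 6.93 to 7.89 in condyle, 4.18 to 7.35 in fossa, with 6.33 to 6.51 in whole body. All 3 condyle arrays lay above all 3 whole body arrays, the same way as the members, and in fossa 1 array lay under whole body and 2 above it. Of the epithelial list 0 passed in limma's test between condyle and whole body (3 at an unadjusted p under 0.05), 2 were lower in fossa than in whole body (Krt18 and Epcam), and 1 was higher in condyle than in fossa (Epcam). Skeletal muscle (1 of 11), macrophage (3 of 9 in condyle, 1 in fossa), erythroid (6 of 8) and liver markers (7 of 8) were lower than in whole body where they passed, and of 8 endothelial markers 0 passed against whole body (0 in condyle and 4 in fossa at an unadjusted p under 0.05). Between condyle and fossa 1 endothelial marker was lower, 1 liver marker was higher, and 0 passed in limma's test among the bone, muscle, macrophage and erythroid lists, where at an unadjusted p under 0.05 the counts were 1, 0, 1 and 1. The part of tissue composition in the members' differences was not tested.

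Genes of the members' own families and pathways were tested in the fit across all genes, in lists drawn up with earlier results of these data known. Counts stand beside the shares of all genes given above, together with 3.84% for lower in condyle than in whole body, 3.99% for fossa above whole body, and 2.13% for lower in condyle than in fossa.

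The small subunit processome, to which Utp4 belongs, had 25 measured genes. Of these 12 were higher and 0 lower in condyle than in fossa, 6 higher and 0 lower in condyle than in whole body, and 1 higher and 6 lower in fossa than in whole body. Their median differences were 0.83, 0.28 and -0.64, beside 0.21, -0.03 and -0.11 over all genes. Pwp2, a subunit of the complex, fell in fossa, at 3.71 on average against 5.70 in whole body (difference -1.99 ± 0.13 SE, adjusted p = 0.000174). It was higher in condyle than in fossa by 2.23 ± 0.13, and also after quantile normalization (1.55, adjusted p = 0.0044). Utp15 rose in condyle against fossa by 1.69 ± 0.34, Utp6 by 1.36 ± 0.28, and Heatr1 rose in condyle against whole body by 1.64 ± 0.43 (adjusted p = 0.0481). After quantile normalization 2 of the 25 were higher in condyle than in fossa, and the median was 0.16. Against whole body 3 were then higher and 2 lower in condyle, with a median of 0.15. In fossa 1 was then higher and 3 lower than in whole body, with a median of -0.09. Utp15 and Utp6 then no longer passed against fossa (adjusted p = 0.112 and 0.178), nor Heatr1 against whole body (adjusted p = 0.148).

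Of 12 measured genes of the EMILIN family, elastin and fibrillin group, 7 were higher and 0 lower in condyle than in whole body, 2 higher and 0 lower in fossa than in whole body, and 4 higher and 0 lower in condyle than in fossa. Medians were 1.94, 0.57 and 0.62. After quantile normalization 4 were higher in condyle than in whole body and 1 was higher in condyle than in fossa, where the median was -0.06. The 2 higher in fossa than in whole body as deposited were Emilin1 (2.08 ± 0.30 SE) and Eln (1.47 ± 0.30). Both also passed above whole body in condyle, by 2.71 ± 0.30 and 1.89 ± 0.30. Emilin3, a relative of Emilin2 found in developing skeletal tissue, stood at 7.06 in condyle, 4.35 in fossa, with 3.94 in whole body. It rose in condyle against whole body by 3.12 ± 0.45 SE (adjusted p = 0.0063) and against fossa by 2.71 ± 0.45 (adjusted p = 0.0088), and its fossa mean did not lie under whole body as that of Emilin2 did. Mfap4 rose against whole body by 3.21 ± 0.62, Fbln5 by 2.35 ± 0.59 (adjusted p = 0.094 after quantile normalization), and Fbn2, a fibrillin gene, rose in condyle against fossa by 2.51 ± 0.64 (adjusted p = 0.0353; 0.154 after quantile normalization).

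Of 16 measured BMP ligands and modulators related to Kcp, 4 were higher in condyle than in whole body, 1 higher in fossa than whole body, and 4 higher in condyle than in fossa, with 0 lower in each. Medians were 0.39, -0.05 and 0.55, and after quantile normalization 2 were higher in condyle than in whole body and 1, Bmp7, in condyle than in fossa. Unlike Kcp, Bmper passed above whole body in both joint tissues, by 2.30 ± 0.48 SE in condyle and 2.40 ± 0.48 in fossa. After quantile normalization Bmper passed in fossa only (adjusted p = 0.0128, and 0.069 in condyle). Bmp7 rose in condyle against whole body, at least 3.10-fold (adjusted p = 0.0035), and against fossa by 1.44 ± 0.20 (adjusted p = 0.0049; 0.0474 after quantile normalization). Fstl1 rose against fossa by 1.28 ± 0.29 and Bmp1, which cleaves chordin, by 1.23 ± 0.32 (adjusted p = 0.22 and 0.501 after quantile normalization). Bmp4 was at background on all 3 fossa arrays and at least 1.39-fold higher in condyle (adjusted p = 0.0353; 0.064 after quantile normalization).

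Of 18 zyxin partners and focal adhesion genes, 6 were higher and 0 lower in condyle than in whole body, 1 higher and 2 lower in fossa than in whole body, and 6 higher and 0 lower in condyle than in fossa. Medians were 0.72, -0.15 and 0.95, and 0 of the 18 passed between condyle and fossa after quantile normalization. On that scaling 4 were higher and 0 lower in fossa than in whole body, with a median of 0.20. In condyle 2 were then higher and 0 lower than in whole body. Parva rose in condyle against fossa by 1.32 ± 0.30, Vcl, the vinculin gene, by 1.30 ± 0.20 and Csrp2 by 1.23 ± 0.32. Unlike Zyx, Ajuba passed above whole body in both joint tissues, by 1.86 ± 0.45 in condyle and 1.68 ± 0.45 in fossa. After quantile normalization Ajuba passed in fossa only (adjusted p = 0.0314, and 0.111 in condyle). Tgfb1i1, a LIM protein gene of the paxillin family, rose against fossa by 1.45 ± 0.27 and fell in fossa against whole body by 1.06 ± 0.27 (adjusted p = 0.0351; 0.0648 after quantile normalization).

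Of 18 measured genes of degradation at the endoplasmic reticulum, 2 were higher in condyle than in whole body, 1 was higher and 4 were lower in fossa than in whole body, and 5 were higher in condyle than in fossa, with 0 lower in condyle in both. Medians were 0.13, -0.03 and 0.65. After quantile normalization 0 were higher and 1 lower in condyle than in fossa in limma's test, with a median of -0.05. Against whole body 2 were then higher and 0 lower in fossa, with a median of 0.32, and 1 was higher and 0 lower in condyle. Erlin1, the partner of Erlin2, stood at 7.76 in condyle, 6.49 in fossa, with 7.67 in whole body. It fell in fossa against whole body by 1.18 ± 0.27 (adjusted p = 0.0230; 0.116 after quantile normalization), while its condyle mean differed from whole body by 0.09 ± 0.27 (adjusted p = 0.826). Ube2g2 rose in condyle against fossa by 1.52 ± 0.42, Sel1l by 1.16 ± 0.33 and Insig1 by 1.12 ± 0.29, and none of these 3 passed after quantile normalization (adjusted p = 0.305, 0.398 and 0.435).

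Of 12 measured taxilins and syntaxins, 4 were higher in condyle than in whole body, 1 was higher and 1 lower in fossa than in whole body, and 3 were higher in condyle than in fossa, with medians of 0.24, -0.32 and 0.42. After quantile normalization 0 passed between condyle and fossa in limma's test, with a median of -0.19. Against whole body 2 were then higher and 0 lower in fossa, with a median of 0.10, and 1 was higher and 1 lower in condyle. Stx16 rose in condyle against whole body by 1.69 ± 0.27, Stx6 rose against fossa by 1.05 ± 0.16 and Stx18 by 0.80 ± 0.13, and Stx2 fell in fossa against whole body by 1.08 ± 0.28 (adjusted p = 0.0369). After quantile normalization the adjusted p of these calls was 0.051 for Stx16, 0.236 for Stx6, 0.772 for Stx18 and 0.0882 for Stx2. Of 18 measured genes of the LDL receptor family and Nedd4 ligases, 4 were higher in condyle than in whole body, 3 higher in fossa than whole body, and 3 higher in condyle than in fossa, with 0 lower and medians of 0.29, -0.27 and 0.67. After quantile normalization 0 passed between condyle and fossa in limma's test, with a median of 0.01. Against whole body 4 were then higher and 0 lower in fossa, with a median of 0.03, and 3 were higher and 0 lower in condyle. Unlike Ldlrad3, Sort1, the sortilin gene, was above whole body in both joint tissues, by 3.26 ± 0.22 in condyle and 1.91 ± 0.22 in fossa (adjusted p = 0.0003 and 0.0017), as was Lrp6, a Wnt coreceptor gene, by 2.64 ± 0.30 and 1.39 ± 0.30, and both genes passed in both tissues after quantile normalization too. Lrp1 rose in condyle against whole body by 1.16 ± 0.25 and Nedd4 in condyle against fossa by 0.70 ± 0.16, and neither passed after quantile normalization (adjusted p = 0.122 and 0.944).

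Likeness to Tac1 was measured as the root mean square difference in log2 level over the 9 arrays, each gene centred on its own mean, among the 10792 other genes above background on all 3 condyle arrays. The nearest 5 were Erlin2 (0.47), Txlna (0.48), Lhx8 (0.48), Mthfd1l (0.50) and Zyx (0.51), of which Erlin2, Txlna and Zyx are members chosen for the same pattern on the same arrays. Erlin2 and Zyx were at background on all 3 fossa arrays, so their distances rest in part on background values. The order moved with the scaling, and after quantile normalization Ydjc ranked 1, Txlna 2, Zyx 3, Lhx8 4, Mthfd1l 7 and Erlin2 8. Lhx8, a LIM homeobox factor of first arch mesenchyme, stood at 7.25, 7.82 and 7.0 in condyle, at 4.18, 3.99 and 4.03 in fossa and at 5.95, 5.16 and 5.73 in whole body. Mthfd1l, a gene of mitochondrial folate metabolism, stood at 6.13, 6.13 and 5.31 in condyle, at 2.89, 3.58 and 2.88 in fossa and at 4.76, 4.71 and 5.04 in whole body. Both were picked for closeness to Tac1 on these arrays, so their likeness to it by group follows from that choice. Mthfd1l was above background on 1 fossa array only. As deposited, Ydjc, Kcp and Utp4 ranked 6 to 8, Srrd 14, Emilin2 19 and Ldlrad3 22.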

How the data were processed

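Biotin-labelled cRNA was hybridised to Affymetrix mouse arrays, per the labels' protocols. The authors deposited linear intensities between 3.25 and 67158.9, with 1 column per array. The submitters' processing notes name limma; background correction, normalization and summarisation are not given in the sources used here. The deposited normalization was kept, and values were put on the log2 scale. The deposited log2 medians were 2.75 to 2.97. Probe sets were named from the platform annotation (34945 with 1 gene, 932 with several, 9160 with none here, 64 controls). Each gene took its probe set with the highest mean (18193 genes).

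The 3 groups were fitted together with limma 3.58.1 in R 4.3.3 (lmFit, eBayes, 6 residual degrees of freedom), with Benjamini-Hochberg adjusted p under 0.05 over all genes. SEs of members come from the same fit over all probe sets. The fit was tested on simulated data. P-values rest on the spread among these 9 samples alone. The members and the 19 other gene lists were chosen with earlier results of these data known. Named genes are the members, up to 4 genes per family list that passed in any comparison, with the largest difference between condyle and fossa (up to 2 where none passed), Tac2, Tac4 and the Tacr genes, and the 5 genes nearest to Tac1. Ajuba, Emilin1, Eln and Bmper are named as well, as genes of their lists that passed above whole body in fossa. Promoter sequences are RefSeq's. The number of arrays limits the precision. Alternatives were 3 other scalings, a filter, a floor, other probe set rules, a replicate block and leaving out each array.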

Additional observations from a re-analysis of the deposited data

Results flagged for a closer look

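Among the family and pathway genes, 11 lay on opposite sides of whole body in the joint tissues, passed between condyle and fossa in limma's test, and passed against whole body in at least 1 of them. They were picked out by this rule after their values were computed, and those not in the report are named for it. In the longest of these lists, the processome, the difference of condyle from fossa (log2) was 2.23 for Pwp2, 1.69 for Utp15, 1.36 for Utp6, 1.28 for Wdr36, 1.26 for Wdr43 and 1.17 for Rrp9. Rrp9 was at background on all 3 fossa arrays, so its fold is at least 1.27. The others were Tgfb1i1 (1.45), Erlin1 (1.27), Stx6 (1.05), Wtip (0.86) and Stx18 (0.80). After quantile normalization Pwp2 (1.55, adjusted p = 0.0044) and Rrp9 (1.09, adjusted p = 0.0111) passed between condyle and fossa and the other 9 did not. As deposited, none of the 11 passed against whole body on both sides. Some sides lay within error (Erlin1 in condyle 0.09 ± 0.27 SE, Wdr43 in fossa -0.12 ± 0.14). Only Utp6 and Rrp9 kept their means on opposite sides after quantile normalization, where Pwp2 lay under whole body in condyle too (-0.25). Condyle above and fossa under whole body, by means alone, held for 22.6% of all genes as deposited.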

How the results depend on the processing

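All 10 members, chosen for that order, kept their condyle mean above and their fossa mean below whole body under each alternative run. The replicate block and the filter leave the group means as they are, so they could not change this order. The run over all probe sets was read on the probe set that represents each gene, and 0 of the 5 other probe sets of members had the order. The sizes were less stable: of their 30 differences, 24 moved by more than the spread between arrays with 75th percentile centring, 19 after quantile normalization, 12 with the mean over probe sets and 10 with a common floor. Against 2398 genes in condyle minus whole body, 8602 passed with 75th percentile centring, most of them lower (7143). In fossa minus whole body 1893 passed with a common floor and 7583 over all probe sets, against 3559. Here and below, counts over all probe sets are out of 45037 probe sets and the main counts out of 18193 genes, so these larger counts are not larger shares. In condyle minus fossa 1176 passed after quantile normalization, 7142 with 75th percentile centring, 1823 with a common floor and 7206 over all probe sets, against 3440. The split moved with the scaling too: for condyle minus whole body 1699 higher and 699 lower as deposited, against 824 and 808 after quantile normalization; for fossa minus whole body 726 and 2833, against 1460 and 1641; for condyle minus fossa 3053 and 387, against 691 and 485. Genes with the order of means of the members numbered 4118, against 2554 after quantile normalization, 1107 with 75th percentile centring and 7918 over all probe sets. Those that passed in both contrasts numbered 69, against 12 after quantile normalization, 10 with 75th percentile centring and 37 with a common floor. Leaving out 1 array gave 1470 (without whole body array 2) to 2591, 2343 (without fossa array 3) to 3352, and 2086 (without condyle array 1) to 3515 for the 3 contrasts, 3917 to 4310 for the order of means, and 31 (without whole body array 2) to 72 for both calls. The causes were not tested, beyond the larger number of probe sets. Of 46 calls of pathway genes named for their difference between condyle and fossa, 34 were lost after quantile normalization and 23 with 75th percentile centring. With the replicate block 21 were lost and with a common floor 18, with 0 reversals. Over the 9 runs that each left out 1 array, counting each call in each run, 162 were lost and 252 held. In a simulated run for condyle minus whole body over 18193 genes, 200 genes were changed, in condyle only. Of these, 11 of 100 changed 2-fold and 42 of 100 changed 4-fold were recovered. Many changes of these sizes were thus missed with 3 arrays a group in that setting. Far more genes passed in the data (2398), where the adjustment is then less strict, so the share missed in the data is not measured by this run.

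The arrays share replicate numbers. Same-numbered arrays correlated at -0.44 to 0.15 in their deviations from the group means, and arrays of different numbers at -0.17 to 0.44. Deviations within a group of 3 depend on each other, and the labels name no embryo. These values therefore cannot decide whether the numbers pair the arrays. With the number as a block, 1691, 2779 and 2537 genes passed in the 3 contrasts, and 46 in both contrasts against whole body.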
